A study of Arabidopsis thaliana with 12 samples.

Results

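The major light-harvesting complex of photosystem II (LHCII) is encoded in Arabidopsis thaliana by 9 nuclear genes, LHCB1.1 to LHCB1.5, LHCB2.1 to LHCB2.3 and LHCB3, which were chosen here by their gene identifiers. All 9 were among the 25566 genes of the expression table, and all passed the filter on low values. Of the 6437 rows of the table of N6-methyladenosine (m6A) peaks, 1 was assigned to a member. The samples came from 3-week-old plants, aerial part, of a mettl16 mutant and of the accession Col-0; transcripts and m6A were measured with 3 biological replicates for each genotype and assay, 12 samples in all. Both genotypes carry the ecotype label Col-0 and grew in 16 h of light and 8 h of dark at 23 °C. No source used here names the mutant allele or the number of plants in a sample. The study asked about m6A in the floral transition. METTL16 proteins are m6A methyltransferases, and FIO1, the Arabidopsis homologue by general knowledge, was taken here as the mutated gene. FIO1 was at 0.292, 0.148 and 0.197 FPKM (fragments scaled by transcript length and library size) in mettl16 and at 1.98, 2.12 and 2.31 FPKM in Col-0, a log2 change of -1.37 (limma adjusted p = 4.94e-07). All mettl16 values lay below all Col-0 values, in the direction of the labels, as in 25.9% of tested genes. The mettl16 mean of FIO1, 0.212 FPKM, was under the filter's 0.5 FPKM. FIO1 thus reached the filter through Col-0 alone and had to differ. The change is that of FPKM + 1, which understates the fall of a gene this low.

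LHCII proteins are made in the cytosol, imported into the chloroplast and inserted into the thylakoid membrane, where they bind chlorophyll a, chlorophyll b and carotenoids and assemble into trimers around photosystem II. LHCB1 and LHCB2 form most of the trimers and are phosphorylated in state transitions, while LHCB3 lacks the phosphorylation site. In green leaves their transcripts are among the most abundant of the nucleus, are induced by light and follow the circadian clock.

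All 9 major LHCII transcripts were lower in mettl16, and 8 of them still passed the test after quantile normalization, where LHCB3 did not. Expression was read as FPKM in the RNA-seq (input) libraries, and tested with limma on log2(FPKM + 1) with Benjamini-Hochberg adjustment over all 19505 tested genes. Lower calls made up 23.4% of the tested genes and higher calls 41.1%, so that 63.7% of calls were higher; that share was 52.5% with median centring and 49.3% with quantile normalization. The 3 mettl16 values lay below the 3 Col-0 values in each of the 9 genes, as they did in 25.9% of tested genes. The median log2 change of the 9 genes was -0.84, against 0.08 for all tested genes; after quantile normalization the medians were -0.26 and -0.01. The log2 changes of the 9 genes spanned -3.35 to -0.53. The 9 genes together held 3.41%, 3.38% and 3.35% of all FPKM in the mettl16 libraries, against 6.09%, 6.10% and 6.17% in the Col-0 libraries. The groups did not overlap (exact two-sided permutation test, p = 0.1, the smallest that 3 against 3 allows). These are bulk samples, so fewer cells of a type and less RNA per cell cannot be told apart.

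The libraries were alike within a genotype, with Pearson's r of log2 values between 0.994 and 0.996, against 0.957 to 0.959 across genotypes. Depth is not stored in FPKM. The value of a single fragment, read from the lowest genes, gave a depth relative to Col-0 replicate 3 of 0.953, 0.940 and 0.829 for mettl16 and 0.637 and 0.927 for Col-0 replicates 1 and 2. Green leaf markers were abundant in both genotypes. RBCS1A, a small subunit of Rubisco, averaged 22145 ± 1006 FPKM in mettl16 and 20755 ± 674 FPKM in Col-0 (SD, n = 3 each), a log2 change of 0.09 (limma adjusted p = 0.0442) that did not pass with no filter, median centring or quantile normalization. Nor did it pass without mettl16 replicate 1 or 3 or Col-0 replicate 2 or 3 (limma adjusted p = 0.0708 to 0.141). CA1, a carbonic anhydrase, averaged 3929 ± 152 FPKM in mettl16 and 3920 ± 121 FPKM in Col-0 (SD, n = 3 each), and RCA, Rubisco activase, 6358 ± 80.8 FPKM in mettl16 and 6440 ± 124 FPKM in Col-0. The log2 changes of CA1 and RCA were 0.00 and -0.02 (limma adjusted p = 0.941 and 0.479), and GAPA1 of the Calvin cycle was at 0.02 (limma adjusted p = 0.617). After quantile normalization CA1, GAPA1 and RCA rose, by 0.39, 0.35 and 0.48. Summed over the 4 markers as deposited, FPKM lay between 32884 and 35115 in mettl16 and between 31820 and 33063 in Col-0. Of the root markers, 2 of 4 had a row: PYK10 averaged 66.4 FPKM in mettl16 and 64.2 FPKM in Col-0, and COBL9 was at most 0.0712 FPKM in mettl16 and listed at 0 in Col-0.

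Flower and anther markers moved with the genotypes. All 6 flower markers and 4 of 8 anther markers reached the filter, and these rose; their Col-0 means were under the filter's 0.5 FPKM, so they reached it through mettl16 alone and had to differ. The flower markers' summed level was 61.5 to 63.0 FPKM in mettl16 and 1.74 to 2.204 FPKM in Col-0. SEP3, a floral organ identity gene, averaged 22.4 ± 0.619 FPKM in mettl16 and 0.216 ± 0.0918 FPKM in Col-0 (SD, n = 3 each). The summed level of the 8 anther markers was 11.6 to 13.8 FPKM in mettl16 and 0.0909 to 0.162 FPKM in Col-0. In Col-0, A9, ATA7, A6, DYT1, MS1 and MYB80 were listed at 0 in all 3 libraries. In mettl16, DYT1, MS1 and MYB80 were low too, at no more than 0.165, 0.0809 and 0.124 FPKM, and under the filter. The part of these organs in the fall of LHCII transcripts was not tested.

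**Figure D1:**
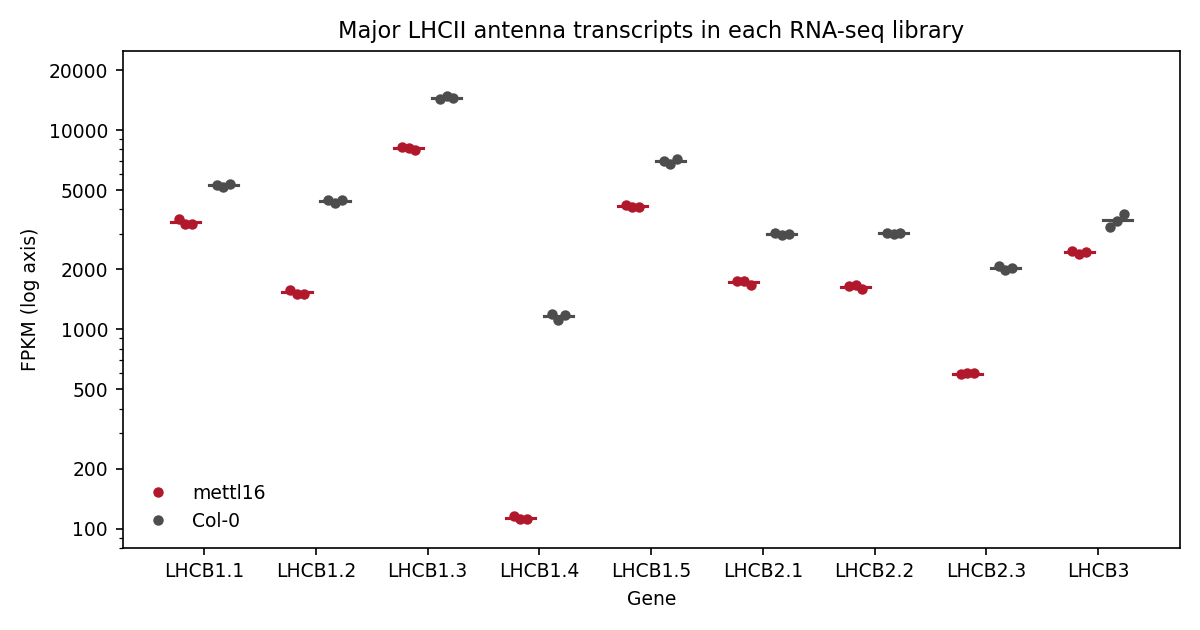
FPKM of each major LHCII gene on a log axis in the 3 mettl16 libraries (red, left of each pair) and the 3 Col-0 libraries (grey, right), with points for libraries and bars for means. The genotypes separate at every gene, most widely at LHCB1.4 (mean 113 FPKM in mettl16 against 1162 FPKM in Col-0).

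LHCB1 was the largest family, with 73.2%, 73.0% and 73.0% of the summed LHCII FPKM in mettl16 and 73.9%, 73.6% and 73.3% in Col-0. LHCB1.3 (AT1G29930, also CAB1; chromosome 1, 10478005 to 10479048, build TAIR10) was the most abundant member in both genotypes. It was measured at 8194, 8130 and 7953 FPKM in mettl16 and at 14350, 14767 and 14404 FPKM in Col-0. Its log2 change was -0.84 (SE 0.0208, limma adjusted p = 1.13e-09), and by mean it ranked 3 of all genes in mettl16 and 2 in Col-0. LHCB1.5 (AT2G34420; chromosome 2, 14522524 to 14523568) came next, at 4191, 4130 and 4113 FPKM in mettl16 and at 6984, 6778 and 7117 FPKM in Col-0. It fell by 0.75 on the log2 scale (SE 0.0229, limma adjusted p = 4.67e-09). LHCB1.1 (AT1G29920, also CAB2; chromosome 1, 10474784 to 10475959), known from reporter studies of the clock, was at 3585, 3372 and 3390 FPKM in mettl16 and at 5308, 5168 and 5343 FPKM in Col-0. It fell by 0.61 on the log2 scale (SE 0.0275, limma adjusted p = 5.31e-08), the smallest fall of its family except after quantile normalization, where that of LHCB1.5 was smaller, and mettl16 kept 65.4% of the Col-0 mean.

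The remaining LHCB1 copies fell further. LHCB1.2 (AT1G29910, also CAB3; chromosome 1, 10472280 to 10473299) was at 1578, 1506 and 1511 FPKM in mettl16 and at 4476, 4293 and 4469 FPKM in Col-0. Its log2 change was -1.53 (SE 0.0266, limma adjusted p = 1.32e-10), which left 34.7% of the Col-0 mean. In rank among all genes it stood at 37 in mettl16 and at 10 in Col-0. LHCB1.4 (AT2G34430; chromosome 2, 14524756 to 14525763) was the least abundant member in both genotypes, at 116, 112 and 112 FPKM in mettl16 and at 1197, 1116 and 1174 FPKM in Col-0. Its mean was 10.3-fold lower in mettl16 (log2 change -3.35, SE 0.0308, limma adjusted p = 4.35e-12). On the scale of log2(FPKM + 1), only 1 of the 19505 tested genes had a more negative change. That scale understates the falls of low genes, so the position favours abundant genes. The rank of LHCB1.4 by level was 927 in mettl16 and 68 in Col-0.

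In the LHCB2 family LHCB2.1 and LHCB2.2 had the smaller log2 changes and LHCB2.3 the largest. LHCB2.1 (AT2G05100; chromosome 2, 1823240 to 1824425) was at 1739, 1749 and 1668 FPKM in mettl16 and at 3028, 2980 and 3003 FPKM in Col-0, a log2 change of -0.81 (SE 0.0237, limma adjusted p = 3.64e-09). LHCB2.2 (AT2G05070; chromosome 2, 1799234 to 1800392) was at 1654, 1659 and 1598 FPKM in mettl16 and at 3032, 3022 and 3031 FPKM in Col-0, a log2 change of -0.89 (SE 0.0219, limma adjusted p = 1.13e-09). In Col-0 the values of this pair overlapped, and in mettl16 LHCB2.1 lay above LHCB2.2 in all libraries. LHCB2.3 (AT3G27690; chromosome 3, 10255947 to 10257011) was at 596, 602 and 599.98 FPKM in mettl16 and at 2086, 1992 and 2029 FPKM in Col-0. It fell by 1.76 on the log2 scale (SE 0.0235, limma adjusted p = 3.23e-11), and mettl16 kept 29.5% of the Col-0 mean.

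LHCB3 (AT5G54270; chromosome 5, 22038273 to 22039568), the single-copy member, had the smallest log2 change of the 9, -0.53 (SE 0.0498, limma adjusted p = 3.62e-05). It was at 2472, 2374 and 2448 FPKM in mettl16 and at 3267, 3505 and 3793 FPKM in Col-0. Its Col-0 libraries were spread more widely than those of any other member, with a coefficient of variation of 7.48%, against 0.191% to 3.57% for the others in Col-0. LHCB3 held 10.2%, 10.04% and 10.5% of the summed FPKM in mettl16 against 7.47%, 8.04% and 8.55% in Col-0 (exact permutation test, p = 0.1). After quantile normalization, which gives each rank the same value in every library, the log2 change of LHCB3 was -0.01 and did not pass the test (limma adjusted p = 0.892). There the changes of LHCB1.1, LHCB1.3, LHCB1.5, LHCB2.1 and LHCB2.2 shrank to -0.26, -0.44, -0.24, -0.14 and -0.25 and still passed, while LHCB1.4, LHCB2.3 and LHCB1.2 were at -3.30, -1.54 and -1.12. Median centring and TPM kept all 9 lower calls.

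The order of the members by level differed between the genotypes. In mettl16 it ran LHCB1.3, LHCB1.5, LHCB1.1, LHCB3, LHCB2.1, LHCB2.2, LHCB1.2, LHCB2.3 and LHCB1.4, and in Col-0 LHCB1.3, LHCB1.5, LHCB1.1, LHCB1.2, LHCB3, LHCB2.2, LHCB2.1, LHCB2.3 and LHCB1.4. LHCB1.2 stood at position 7 in mettl16 and at position 4 in Col-0. Neighbours in these orders did not overlap across libraries, apart from LHCB2.1 and LHCB2.2 in Col-0.

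Shares within a family do not depend on a linear scaling of a library. LHCB1.4, the scarcest copy, supplied 0.655%, 0.649% and 0.653% of the summed LHCB1 FPKM in mettl16, against 3.70%, 3.48% and 3.61% in Col-0. The share of LHCB1.2 was 8.93%, 8.73% and 8.85% in mettl16 and 13.9%, 13.4% and 13.7% in Col-0. Both copies held less of their family in every mettl16 library than in any Col-0 library, and the other LHCB1 copies held more. LHCB1.1 averaged 19.9% ± 0.376 in mettl16 and 16.3% ± 0.198 in Col-0, and LHCB1.5 23.9% ± 0.178 in mettl16 and 21.5% ± 0.402 in Col-0 (SD, n = 3 each). LHCB1.3, the main copy, averaged 46.7% ± 0.386 in mettl16 and 44.9% ± 0.933 in Col-0. In LHCB2, the share of LHCB2.3 was 14.9%, 15.0% and 15.5% in mettl16 and 25.6%, 24.9% and 25.2% in Col-0. LHCB2.1 and LHCB2.2 averaged 43.4% ± 0.260 and 41.4% ± 0.0659 in mettl16, against 37.2% ± 0.0591 and 37.5% ± 0.291 in Col-0. No share overlapped between the genotypes. Each of 17 shares and ratios tested gave p = 0.1 in the exact two-sided permutation test, 0.1 after Benjamini-Hochberg adjustment, the smallest value possible. The 17 are not separate results, since ratios reuse the same genes. Shares of a family add up to the whole, so a loss by some copies is a gain by others. Between copies of near-identical sequence, the authors' assignment of reads could shift values from one copy to another, so the split within LHCB1 and within LHCB2 is uncertain.

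**Figure D2:**
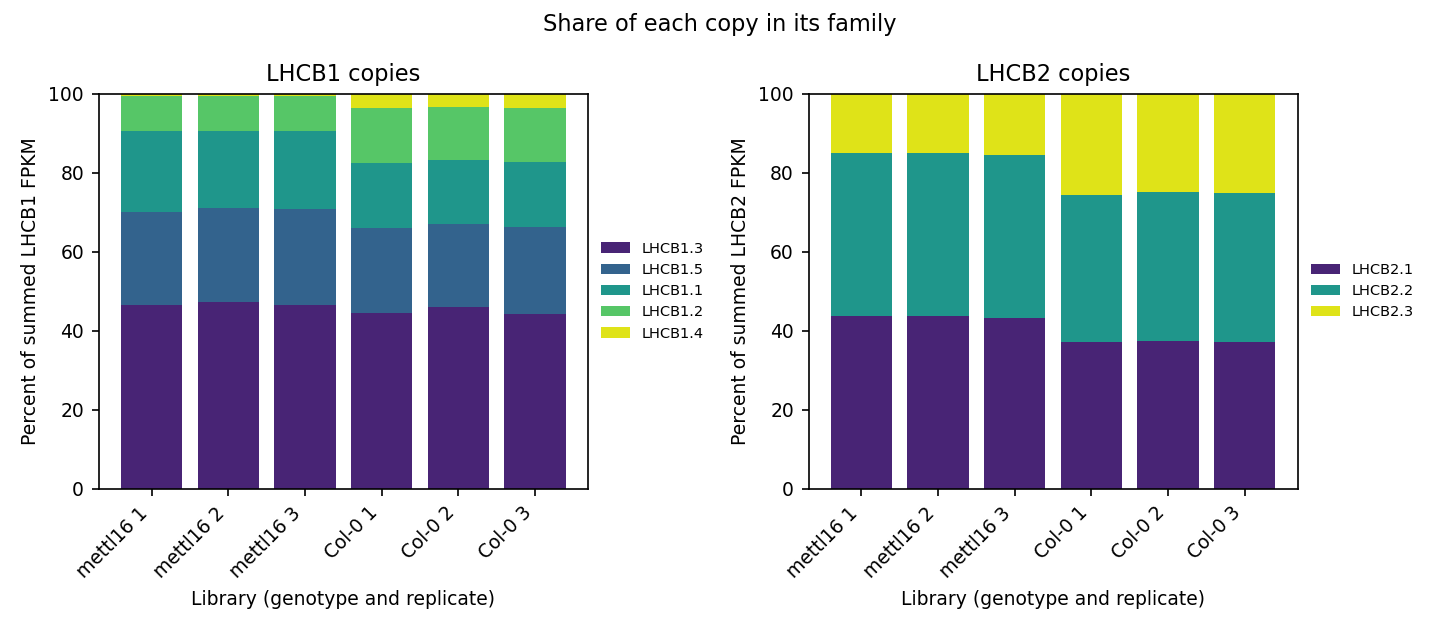
Stacked bars give the percent of summed LHCB1 FPKM (left panel) and summed LHCB2 FPKM (right panel) taken by each copy, with the mettl16 libraries left of the Col-0 libraries. LHCB1.4, LHCB1.2 and LHCB2.3 take smaller shares in all 3 mettl16 libraries than in all 3 Col-0 libraries.

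The family sums, also subject to how the authors counted reads shared between copies, were lower in every mettl16 library than in any Col-0 library. LHCB1 summed to 17663, 17251 and 17080 FPKM in mettl16 and to 32314, 32121 and 32507 FPKM in Col-0. LHCB2 summed to 3989, 4010 and 3866 FPKM in mettl16 and to 8146, 7994 and 8062 FPKM in Col-0. The sum over all 9 members was 23718 ± 372 FPKM in mettl16 and 43903 ± 401 FPKM in Col-0 (SD, n = 3 each). LHCB1.3 accounted for 6415 FPKM of the difference between the means, LHCB1.2 for 2881, LHCB1.5 for 2814 and LHCB1.1 for 1823, while LHCB1.4, with the largest fold, accounted for 1049.

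Copies that neighbour each other on a chromosome differed in how far apart the genotypes were. These ratios carry the same uncertainty about how reads were split between near-identical copies. LHCB1.5 and LHCB1.4 point away from each other on chromosome 2, with 1187 bases between them and no other gene of the table in the gap. LHCB1.4 over LHCB1.5 was 0.0276, 0.0271 and 0.0271 in mettl16 and 0.171, 0.165 and 0.165 in Col-0. The log2 ratio was -5.20 ± 0.0153 in mettl16 and -2.58 ± 0.0322 in Col-0 (SD, n = 3 each), a difference of -2.61. On chromosome 1, LHCB1.2 and LHCB1.1 lie in tandem on the minus strand, 1484 bases apart, and LHCB1.3 follows 2045 bases further on the plus strand. LHCB1.2 over LHCB1.1 was 0.440, 0.447 and 0.446 in mettl16 and 0.843, 0.831 and 0.837 in Col-0, a log2 difference of -0.91. LHCB1.1 over LHCB1.3, the divergent pair, was 0.438, 0.415 and 0.426 in mettl16 and 0.370, 0.350 and 0.371 in Col-0, a log2 difference of 0.23. LHCB2.2 and LHCB2.1 lie 22847 bases apart on chromosome 2, and LHCB2.1 over LHCB2.2 was 1.05, 1.05 and 1.04 in mettl16 and 0.998, 0.986 and 0.991 in Col-0, a log2 difference of 0.08. Of these 4 pairs of neighbours, LHCB1.4 and LHCB1.5 had the largest difference and the LHCB2 pair the smallest, and the genotypes did not overlap in any (exact permutation test, p = 0.1 each).

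**Figure D3:**
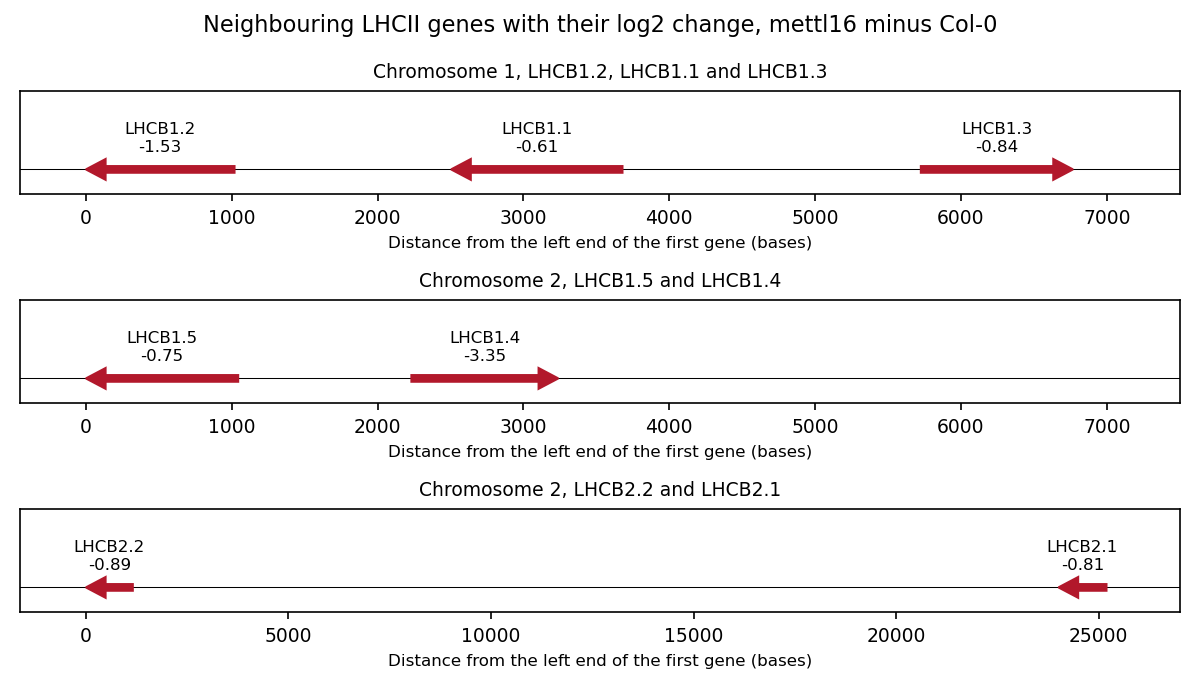
Positions of neighbouring LHCII genes in bases from the left end of the first gene, with arrows for the direction of transcription and the log2 change (mettl16 minus Col-0) above each gene. LHCB1.4 (-3.35) and LHCB1.5 (-0.75) are adjacent and divergent.

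Most other antenna genes were lower in mettl16 too, where 23.4% of all tested genes were lower and 41.1% higher. Among the minor photosystem II antennae, monomers that link the trimers to the core, 4 of 5 fell and 1 rose, with a median log2 change of -0.60. LHCB4.2 changed by -0.93, LHCB4.1 by -0.64, LHCB6 by -0.60 and LHCB5 by -0.57 (limma adjusted p between 2.97e-09 and 1.48e-07), and LHCB5 did not pass after quantile normalization (-0.03, limma adjusted p = 0.426). The gene that rose, LHCB4.3 (0.11, limma adjusted p = 0.0339), is named after its value was seen. Its call was lost when mettl16 replicate 1 or 3 or Col-0 replicate 1 or 2 was left out (adjusted p = 0.0617 to 0.128), and with no filter, median centring or quantile normalization. Among the photosystem I antennae 5 of 6 fell and 1 rose, with a median of -0.61. After quantile normalization 3 fell and 2 rose, beside 6252 lower and 6088 higher of all 19505 tested genes. LHCA2, LHCA4, LHCA1 and LHCA3, the main subunits, changed by -0.65, -0.64, -0.62 and -0.59 (limma adjusted p between 6.36e-09 and 7.79e-08), but after quantile normalization LHCA2 was at 0 and not called and LHCA3 rose by 0.09. The summed FPKM of the 9 LHCII genes was 2.43, 2.41 and 2.43 times that of LHCA1 to LHCA6 in mettl16, and 2.94, 2.90 and 2.95 times in Col-0.

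Nuclear genes for photosystem II subunits fell in 9 of 9 cases, with a median log2 change of -0.48, where 23.4% of all tested genes were lower. After quantile normalization 3 fell and 3 rose. These shares are close to those of all 19505 tested genes there, of which 6252 were lower and 6088 higher. PSBQ2 and PSBO2, of the oxygen-evolving complex, changed by -0.79 and -0.58, PSBW by -0.60 and PSBO1 by -0.50 (limma adjusted p between 1.14e-08 and 7.99e-06), and PSBO1 did not pass after quantile normalization (limma adjusted p = 0.339). The lists were not tested against each other, and their medians after quantile normalization were -0.30 for the minor antennae, -0.10 for the photosystem I antennae and -0.03 for the photosystem II subunits, beside -0.26 for the major LHCII genes.

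Of 5 genes for delivery to the thylakoid, 2 fell and none rose, beside 23.4% lower and 41.1% higher among all tested genes. CPSRP43, the chloroplast signal recognition particle subunit that binds LHC proteins, changed by -0.38 (limma adjusted p = 2.08e-06; -0.56 after quantile normalization), and ALB3, the insertase, by -0.15 (limma adjusted p = 0.000445; -0.24 after quantile normalization). CPFTSY (-0.07, limma adjusted p = 0.14) and LTD (-0.06, limma adjusted p = 0.202) did not pass the test, and both passed as lower after median centring or quantile normalization. STN7, the kinase of LHCII in state transitions, averaged 81.1 ± 1.45 FPKM in mettl16 and 93.9 ± 1.23 FPKM in Col-0, a log2 change of -0.21 (limma adjusted p = 9.34e-05). TAP38, the phosphatase that opposes it, changed by -0.16, and STN8, a kinase of the photosystem II core, by 0.22 (limma adjusted p = 0.000667 and 0.000296), against -0.26 and 0.14 after quantile normalization. PSBS, a member of the LHC protein superfamily that triggers quenching of excess light, was higher in the mutant, at 1554 ± 43.6 FPKM in mettl16 and 1325 ± 18.1 FPKM in Col-0 (SD, n = 3 each; log2 change 0.23, limma adjusted p = 3.34e-05; 0.56 after quantile normalization).

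Chlorophyll b is needed for stable LHCII, and CAO, which makes it, averaged 66.7 ± 0.795 FPKM in mettl16 and 126 ± 2.63 FPKM in Col-0 (SD, n = 3 each; log2 change -0.90, limma adjusted p = 4.64e-09). Of the 6 genes of the chlorophyll b cycle and LHCII breakdown 3 fell and 1 rose, beside 23.4% lower and 41.1% higher among all tested genes. NOL, which with NYC1 reduces chlorophyll b, changed by -0.39, and HCAR, which acts after them, by 0.48 (limma adjusted p = 5.66e-05 and 0.000122). SGR1, which starts chlorophyll breakdown, changed by -0.16 (limma adjusted p = 0.0256), a call lost without mettl16 replicate 3 (0.092) or Col-0 replicate 3 (0.0963) and with TPM (0.0506).

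Of 16 regulators with a known role in LHCB transcription, 15 had a row and were tested, of which 7 fell and 5 rose. Of all tested genes 23.4% were lower and 41.1% higher. GLK1 and GLK2, transcription factors that activate LHCB genes, both fell. GLK1 was at 47.7, 46.5 and 45.5 FPKM in mettl16 and at 142, 143 and 139.8 FPKM in Col-0, a log2 change of -1.58 (limma adjusted p = 1.58e-10). GLK2 was at 44.7, 46.9 and 48.2 FPKM in mettl16 and at 127, 124 and 124 FPKM in Col-0, a log2 change of -1.41 (limma adjusted p = 8.68e-10). PIF4, PIF1 and PIF5, phytochrome-interacting factors of which PIF1 represses photosynthesis genes in the dark, changed by -1.06, -0.58 and -0.46. GNC, a GATA factor that promotes greening, and GUN4, a cofactor of magnesium chelatase linked to plastid signalling, changed by -0.43 and -0.40. The 5 that rose were LHY and CCA1, morning clock factors related to each other (1.09 and 0.34), HYH and HY5, light-responsive bZIP factors (0.87 and 0.29), and GUN1 (0.10), whose call was lost after median centring or quantile normalization. The limma adjusted p of these 12 lay between 1.58e-10 and 0.00617. No time of day of sampling is stated, and the part of the clock or of any regulator in the fall of LHCII transcripts was not tested.

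**Figure D4:**
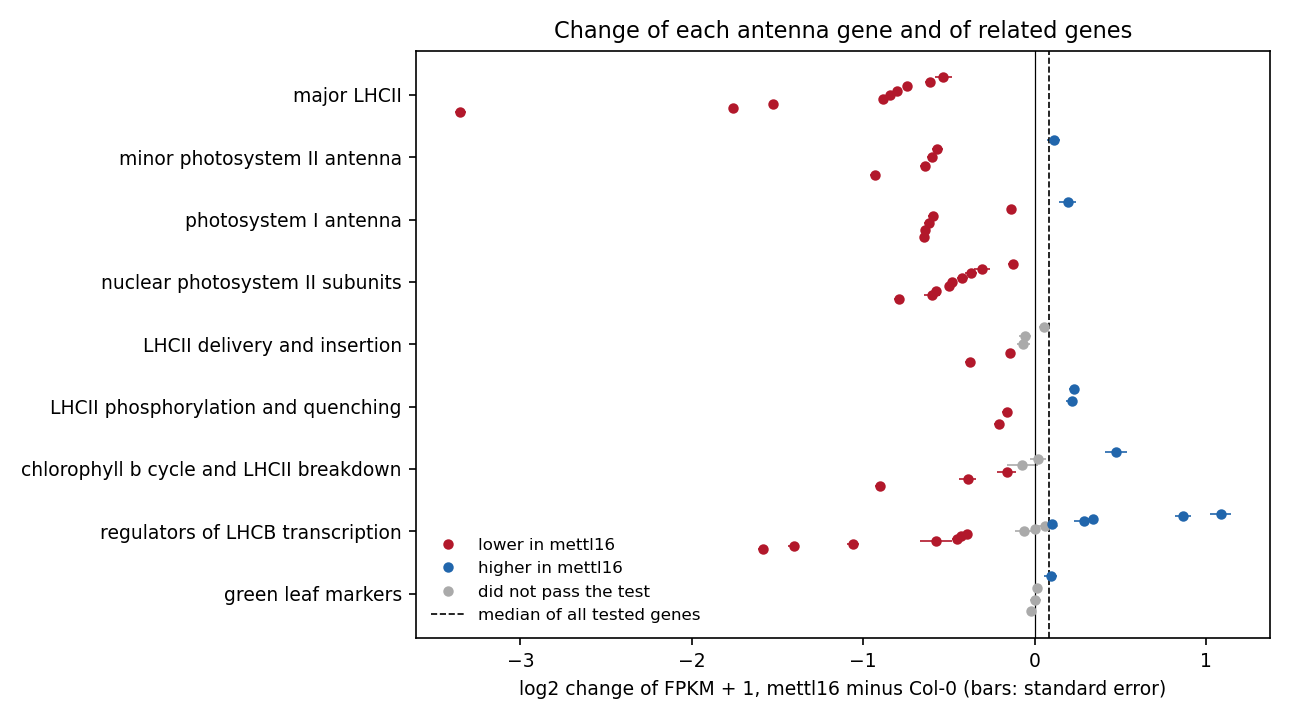
Each point is the log2 change of a tested gene (mettl16 minus Col-0, bars for standard errors), grouped by list and coloured by limma call, with a dashed line at the median of all tested genes (0.08). The 9 major LHCII genes lie between -3.35 and -0.53, while green leaf markers lie near 0; after quantile normalization 3 of these 4 rose.

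Many abundant genes followed the genotypes as closely as LHCII did. Of 2176 other genes that averaged 50 FPKM or more, 243 had a Pearson's r of at least 0.99 with the summed LHCII level over the 6 libraries, on the log2(FPKM + 1) scale. This is mainly the step between 2 groups of libraries and is given as a description. The 5 most alike were PTAC16 (r = 0.9999), a protein of the plastid nucleoid, AT5G03350 (0.9999), a legume lectin family gene, AT3G10060 (0.9998), an FKBP-like isomerase, LHCA2 (0.9998) and J11 (0.9997), a DnaJ-domain chaperone. PTAC16 was at 252, 247 and 246 FPKM in mettl16 and at 569, 566 and 573 FPKM in Col-0, a log2 change of -1.19. AT5G03350, AT3G10060 and J11 changed by -1.79, -1.48 and -1.44. AT5G03350 and J11 averaged 22.6 and 29.4 FPKM in mettl16 and 81.0 and 81.5 FPKM in Col-0. They thus reached the mean of 50 FPKM through Col-0 alone and had to differ.

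m6A was compared with the authors' deposited table, in which each row is a peak with a fold change between the genotypes, read as mettl16 over Col-0 from the name of the table, since its columns do not state the direction. Only LHCB3 had a row. In the authors' deposited table its peak (chromosome 5, 22039413 to 22039893, build TAIR10, 481 bases, annotated as 3' UTR) had a log2 fold change of -0.248 with an FDR of 0.00813. Whether the fold changes of peaks were corrected for transcript level is not stated. The LHCB3 transcript had a log2 change of -0.53. The median of all rows in the authors' deposited table was -0.227, and 51.6% of rows were lower and 17.6% higher at an FDR under 0.05. In that direction 45.9% of rows were lower than the LHCB3 peak. With the direction turned round, the signs and the words lower and higher would exchange places, and these shares would stay.

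The peak lies mostly outside LHCB3. Of its 481 bases, 156 overlap LHCB3 and 325 lie beyond the annotated end of the gene. The whole peak lies inside ATM2 (AT5G54280; chromosome 5, 22039383 to 22046298), a myosin gene on the opposite strand whose 3' end overlaps that of LHCB3 by 186 bases. ATM2 had no row of its own in the authors' deposited table, which gives the strand of the assigned gene but none for the peak. ATM2 was at 6.63, 6.58 and 6.61 FPKM in mettl16 and at 5.19, 5.47 and 5.04 FPKM in Col-0, a log2 change of 0.29 (limma adjusted p = 0.000869), opposite to that of LHCB3. Which of these transcripts carried the methylated fragments was not tested. In the authors' deposited table, 10.9% of rows reached outside the gene they were assigned to.

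**Figure D5:**
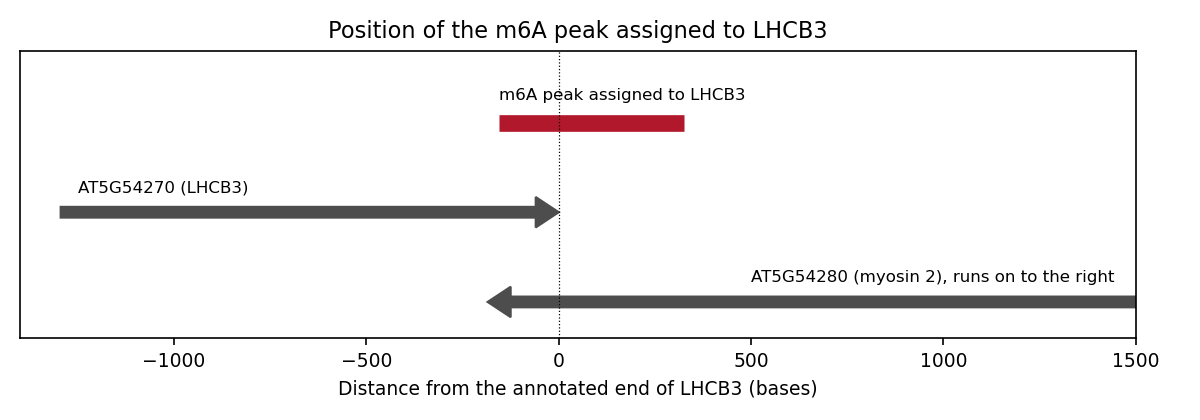
Map of the m6A peak assigned to LHCB3 (red), LHCB3 and the overlapping gene for myosin 2 (grey arrows in the direction of transcription), in bases from the annotated end of LHCB3. Of the peak, 325 bases lie right of the end of LHCB3, and all of it lies within the myosin gene.

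The LHCB1 and LHCB2 genes, 8 of the 9 members, had no row in the authors' deposited table; how a peak came to be listed there is not stated. A row was present for 29.1% of all tested genes, for 11.1% of the members and for 4 of the 11 other antenna genes. Of these, LHCB4.1 and LHCA2 had higher peaks in the authors' deposited table (log2 fold changes of 0.215 and 0.356, FDR 1e-230 and 1e-258), and LHCB4.3 and LHCA5 lower ones (-0.172 and -0.644, FDR 8.13e-05 and 0.0257). For the members with the largest falls in transcript, LHCB1.4, LHCB2.3 and LHCB1.2, no m6A value can be set beside expression.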

How the data were processed

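The authors deposited FPKM values per gene for the 6 RNA-seq (input) libraries and, per the file headers, a table of m6A peaks holding the log2 fold change, the p-value of that change, a p-value for the peak itself and the log10 FDR (a score at or below 0). The submitters' processing notes list edgeR, HOMER, StringTie, HISAT2, fastp and cutadapt with build TAIR10 and no versions or roles. How reads shared between copies, strand and peak replicates were handled is not given. RNA fragments were about 100 nt and reads 150 bp, per the labels' protocols.

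Each column was assigned by the genotype and replicate in its name. Genes averaging 0.5 FPKM or more were tested on log2(FPKM + 1), pseudocount 1, with limma 3.58.1 in R 4.3.3 (trended, robust, two-sided, adjusted p under 0.05), so a fold change understates that of low genes. The test was checked on simulated data. FPKM gives no absolute depth, so no counting interval is given. Shares and ratios used an exact permutation test over samples, in Python 3.11.15 with NumPy 2.4.6 and pandas 2.3.3. Alternatives were pseudocount 0.1, no filter, median centring, quantile normalization, TPM, leaving out each library, a replicate block, summed copies, an FDR of 0.01 and repeated intervals counted once. All members were named, with up to 4 genes of each related list by size of change, all regulators that passed, the 5 most alike genes and every member peak; ATM2, LHCB4.3, LHCA5 and the peaks of related genes were named after their values were seen. RefSeq symbols (TAIR10.1) matched all 9 members. The members and lists were chosen with earlier results of these data known.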

Additional observations from a re-analysis of the deposited data

How the results depend on the processing

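All 9 members stayed lower in mettl16, and none was called higher, with pseudocount 0.1, no filter, median centring, TPM or any library left out. After quantile normalization 8 passed, and LHCB3 did not (log2 change -0.01). The median log2 change of the LHCB1 copies was -0.84, and the log2 change of their summed FPKM, a different measure, was -0.90. For LHCB2 the median over copies was -0.89 and the change of the sum -1.03. Among related genes called with or without quantile normalization, those that reversed there were LHCA3 (0.0886), PSBP1 (0.0242), PSBQ1 (0.17), PSBX (0.12), PSBY (0.23) and RCA (0.48). PSBP1 was no longer called there (limma adjusted p = 0.368), and RCA was called only there. GUN5, not called as deposited, was lower after median centring (-0.0703). Genes called in neither setting, such as CPSRP54 and NYC1, changed sign too. The cause of these changes was not tested. Quantile normalization fixes the value at each rank. The members, none of which reversed, ranked between 2 and 68 in Col-0 and between 3 and 927 in mettl16. The rise of RBCS1A (0.09) was lost without mettl16 replicate 1 or 3 or Col-0 replicate 2 or 3 (adjusted p = 0.0708 to 0.141), with no filter (0.0741), with median centring (0.619) and with quantile normalization, where it was at 0. The peak of LHCB3 was called at an FDR of 0.01 too, 1 of 1. With a replicate block, 9 members were lower, among 4494 lower and 7915 higher genes. Replicates with the same number correlated at -0.08, 0.01 and 0.00 in their deviations. With 3 libraries per genotype, these values show no pairing by number and cannot exclude one.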
